A study of Oryza sativa with 16 samples.

Results

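Constitutive differences between 2 rice genotypes were measured in well-watered panicles, with the drought-tolerant introgression line DTY-IL compared with its recurrent parent Swarna. The 4 DTY-IL control libraries and 3 of the 4 Swarna control libraries were compared, that is 7 of the 16 libraries of the series. Swarna control replicate 3, which the authors removed as an outlier, did not enter the fit. Of 55801 genes in the count table, the 33698 whose counts over the 15 retained libraries summed to 10 or more were tested.

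An introgression line carries segments of a donor genome in the genome of a recurrent parent, so that most of its loci are shared with that parent and the donor alleles lie in a limited number of chromosome segments. Expression differences between such a line and its parent are therefore usually read along the chromosomes. Genes inside a donor segment carry their own donor regulatory sequence, while genes elsewhere carry the sequence of the recurrent parent.

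Swarna is an indica variety that is susceptible to drought, and DTY-IL is a single line that holds fragments of the donor N22 in a Swarna background, so that genotype and line cannot be told apart. The plants grew in pots in a greenhouse, and in the drought treatment water was withheld from the reproductive stage until the soil reached 75% of field capacity, was kept there for 9 days and was then kept at 50% for 3 more days. Control plants were watered throughout, and the emerging panicles were harvested on day 12 in either treatment. The 8 droughted libraries, 4 per genotype, are not part of the control contrast and served to read the control differences a second time. They entered the same fit, however, and so share its gene filter and its estimate of the spread.

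The values were estimated counts per gene. The 7 control libraries held from 26308434 to 31080042 counts each. Reads had been assigned to the transcripts of Nipponbare, a japonica variety, and reads shared by similar genes are split among them. A count of 0 could mean no transcript, no gene or an allele too different from the reference, and these cannot be told apart here. In whole panicles, fewer cells of a type and less RNA per cell cannot be told apart either. The locus identifiers are those of RGAP 7, the rice genome annotation that the counts follow, whose second field is the chromosome and whose last digits follow the order of the loci along it. The files do not pair loci with gene names, and functions are given only for the few loci that the study annotates.

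In control panicles 371 genes differed between the genotypes (differentially expressed genes, DEGs). A DEG had a Benjamini-Hochberg adjusted p of 0.05 or less in edgeR's quasi-likelihood test and at least a 2-fold difference, that is 1 on the log2 scale. They were 1.1% of the genes tested. In DTY-IL 202 of them were higher and 169 were lower, which is 0.599% and 0.502% of the genes tested. For all 371 the normalized counts of the 4 DTY-IL and the 3 Swarna libraries did not overlap, whereas the groups did not overlap in 12.9% of all genes. The DEGs took from 1.01% to 1.21% of all counts in the DTY-IL control libraries and from 0.537% to 0.586% in the Swarna control libraries.

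Most of the differences that were called lay well above the 2-fold limit. The median absolute log2 fold change of the DEGs was 3.84, against 0.29 over all genes tested. A median above that of all genes follows from the limits that define a DEG, and the values are given as a description of the called genes only. For 94 DEGs 1 genotype had no count in any control library, and with these set to the bound that 3 counts per library allow, the median was 2.97. On that scale 121 DEGs differed by less than 2 log2 units, 126 by 2 to 4 and 124 by 4 or more. DEGs were most frequent at middle levels. Of the genes whose higher group averaged 50 to 500 normalized counts 2.01% were DEGs, against 0.921% below 50 and 0.467% from 500 upward.

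Among the genes with counts in both genotypes, LOC_Os04g25784 and LOC_Os01g37280 showed 2 of the smallest p-values of the genes higher in DTY-IL. LOC_Os04g25784 had 1414, 1860, 2018 and 956 counts in DTY-IL and 16, 24 and 21 in Swarna. Its log2 fold change was 6.21 ± 0.27 (SE, 4 against 3 libraries), or 73.8-fold, with an adjusted p of 6.54e-09 by edgeR's quasi-likelihood test. LOC_Os01g37280 had 1304, 1226, 1112 and 710 counts in DTY-IL and 27, 33 and 23 in Swarna, a log2 fold change of 5.24 ± 0.20 (SE; edgeR adjusted p = 5.13e-09). In both genes the lowest DTY-IL library stood far above the highest Swarna library.

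In the other direction, LOC_Os09g34340 had 6, 4, 7 and 4 counts in DTY-IL and 463, 453 and 318 in Swarna, a log2 fold change of -6.29 ± 0.26 (SE; edgeR adjusted p = 6.54e-09). LOC_Os01g38580 had 38, 40, 17 and 26 counts in DTY-IL and 1316, 1154 and 1004 in Swarna, a log2 fold change of -5.29 ± 0.28 (SE; edgeR adjusted p = 3.57e-08). Every DTY-IL library held some counts of both genes. Whether the few counts of LOC_Os09g34340 came from that gene or from reads shared with similar genes was not tested. The left-out Swarna control replicate 3 had 569 and 160 counts of the pair, above every DTY-IL library.

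A subset of the DEGs had next to no counts in 1 genotype. A gene was called on/off when every control library of 1 genotype held at most 3 counts and every control library of the other held at least 30. By this rule 64 genes were on/off, which is 0.115% of the genes in the table. Of these, 30 were on in DTY-IL and 34 were on in Swarna. All 64 were DEGs, which follows from a rule on the same libraries and is given as a description. In 19 of the 30 and in 19 of the 34 the silent genotype had no count in any control library.

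The on genes were not all weak. Their mean in the genotype that expressed them ranged from 49.1 to 2334 normalized counts in DTY-IL (median 188) and from 32.3 to 5425 in Swarna (median 107). LOC_Os05g13380 had 1166, 2167, 3668 and 2517 counts in DTY-IL and 3, 1 and 2 in Swarna. LOC_Os04g25990 had 793, 791, 773 and 676 counts in DTY-IL and none in the 3 Swarna libraries, so that it was at least 247-fold higher in DTY-IL when Swarna is set to 3 counts per library. The 4 DTY-IL libraries of LOC_Os04g25990 lay close together, while those of LOC_Os05g13380 spread widely.

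LOC_Os04g10500 was the reverse case, with 6253, 6251 and 3932 counts in Swarna and 2, 1, 1 and 0 in DTY-IL. LOC_Os10g28310 had 400, 273 and 462 counts in Swarna and none in the 4 DTY-IL libraries, and was at least 129-fold lower in DTY-IL. The left-out Swarna control replicate 3 held 17 counts of LOC_Os04g10500, far below the other Swarna control libraries, and 443 of LOC_Os10g28310. The next locus of the table after LOC_Os04g10500, LOC_Os04g10530, was on in the other genotype, with 104, 153, 77 and 96 counts in DTY-IL and none in Swarna. Whether these neighbours share sequence was not tested.

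The same on/off state was largely found again under drought. Swarna held at most 3 counts in all 4 droughted libraries for 25 of the 30 genes that were on in DTY-IL, and its highest count at any of the 30 was 10. DTY-IL held at most 3 counts for 33 of the 34 genes that were on in Swarna, with a highest count of 7. The expressed side stayed above the limit less often in Swarna. Under drought 27 of the 30 genes kept at least 30 counts in every DTY-IL library, but 16 of the 34 did so in Swarna. The genes on in Swarna also started nearer to that limit, at a median of 107 normalized counts in control against 188 for those on in DTY-IL. Even so, the droughted libraries of the genotypes did not overlap for 30 of 30 and for 31 of 34 genes. The share of all genes without overlap under drought was not determined. Of the 30 and the 34 genes, 30 and 31 were DEGs in the same direction under drought, where 2.09% and 1.26% of all genes were DEGs higher and lower in DTY-IL.

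**Figure D1:**
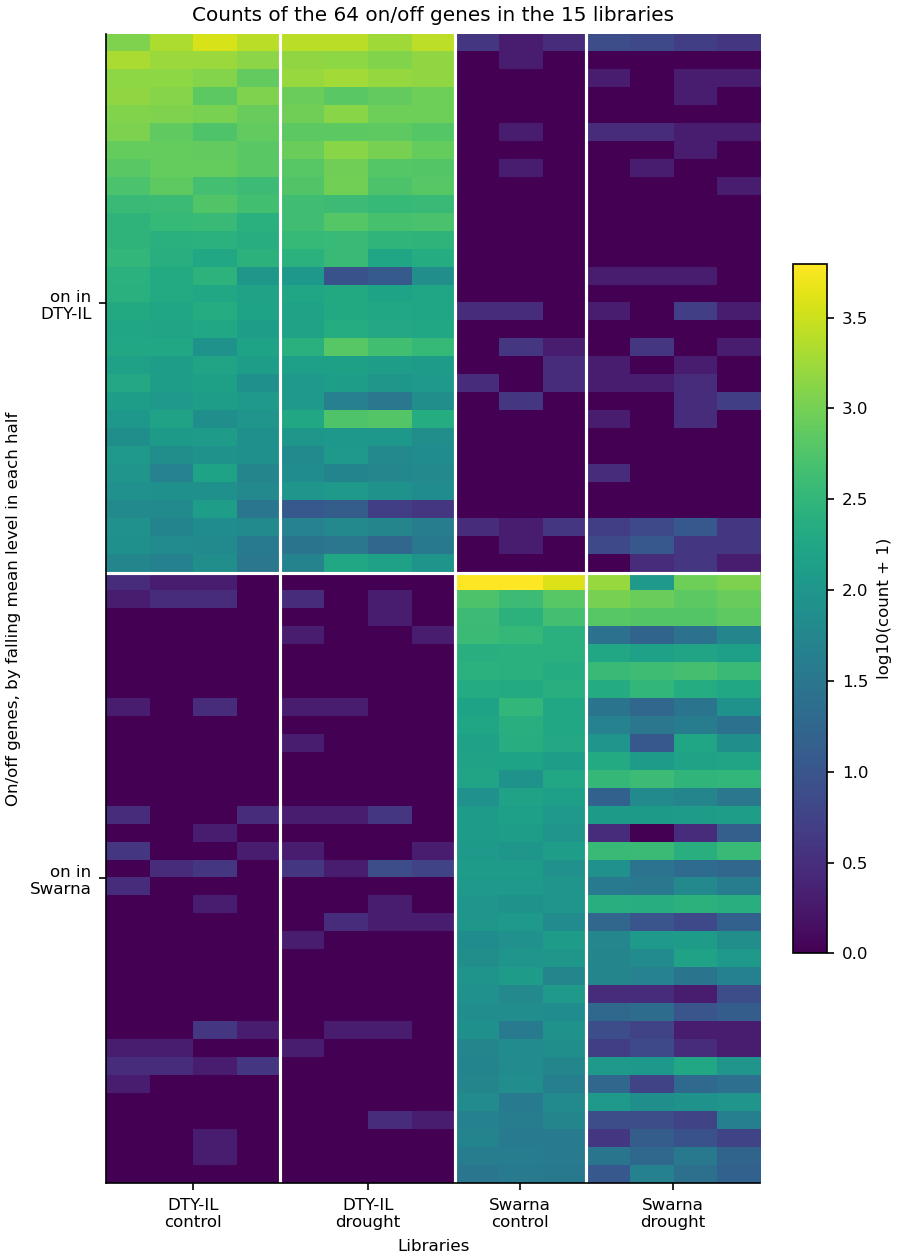
Counts of the 64 on/off genes, as log10(count + 1) on the colour scale. Each row is a gene and each column 1 of the 15 libraries, grouped by genotype and treatment. The 30 genes above the horizontal white line were on in DTY-IL control and the 34 below it were on in Swarna control, and the genotype without counts in control stays dark under drought, while several lower rows are darker in Swarna drought than in Swarna control, where 16 of 34 genes kept at least 30 counts in every library.

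LOC_Os04g10500 was among the genes with fewer counts there, at 1601, 109, 923 and 1118 counts in droughted Swarna against 0 in all 4 droughted DTY-IL libraries. LOC_Os10g28310 had more, with 655, 606, 593 and 711 counts in droughted Swarna and 0, 0, 1 and 0 in DTY-IL. LOC_Os05g13380 stayed on in droughted DTY-IL at 2564, 2566, 1808 and 2577 counts, against 7, 6, 4 and 3 in Swarna. At none of these genes did the genotypes overlap in either treatment.

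The DEGs were unevenly placed along the genome. Chromosomes 1 and 4 held 178 of the 371 DEGs, or 48.0%, with 22.3% of the genes tested. The share of tested genes that were DEGs was 2.67% on chromosome 4, 2.16% on chromosome 1, 1.82% on chromosome 9, 1.73% on chromosome 11 and 1.57% on chromosome 8. It was 0.851% on chromosome 10 and 0.684% on chromosome 3. Chromosomes 2, 5, 6, 7 and 12 together held 40 DEGs among 13857 tested genes, or 0.289%. The on/off genes numbered 16 on chromosome 4, 15 on chromosome 11, 13 on chromosome 1, 7 on chromosome 8 and 5 on chromosome 3, but 1 on chromosome 9, although its share of DEGs was the third highest.

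To locate them more finely, the tested genes of each chromosome were taken in locus order in windows of 50. Of 680 windows, 487 held no DEG and 122 held 1. In 17 windows at least 10% of the genes were DEGs, and these dense windows, joined where at most 1 window lay between them, formed 10 blocks. The blocks held 900 genes, or 2.67% of those tested, and 116 of the 371 DEGs, or 31.3%. Since the windows were chosen for their control DEGs, these shares describe the blocks and test nothing. Of the 64 on/off genes 29 lay in the blocks.

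**Figure D2:**
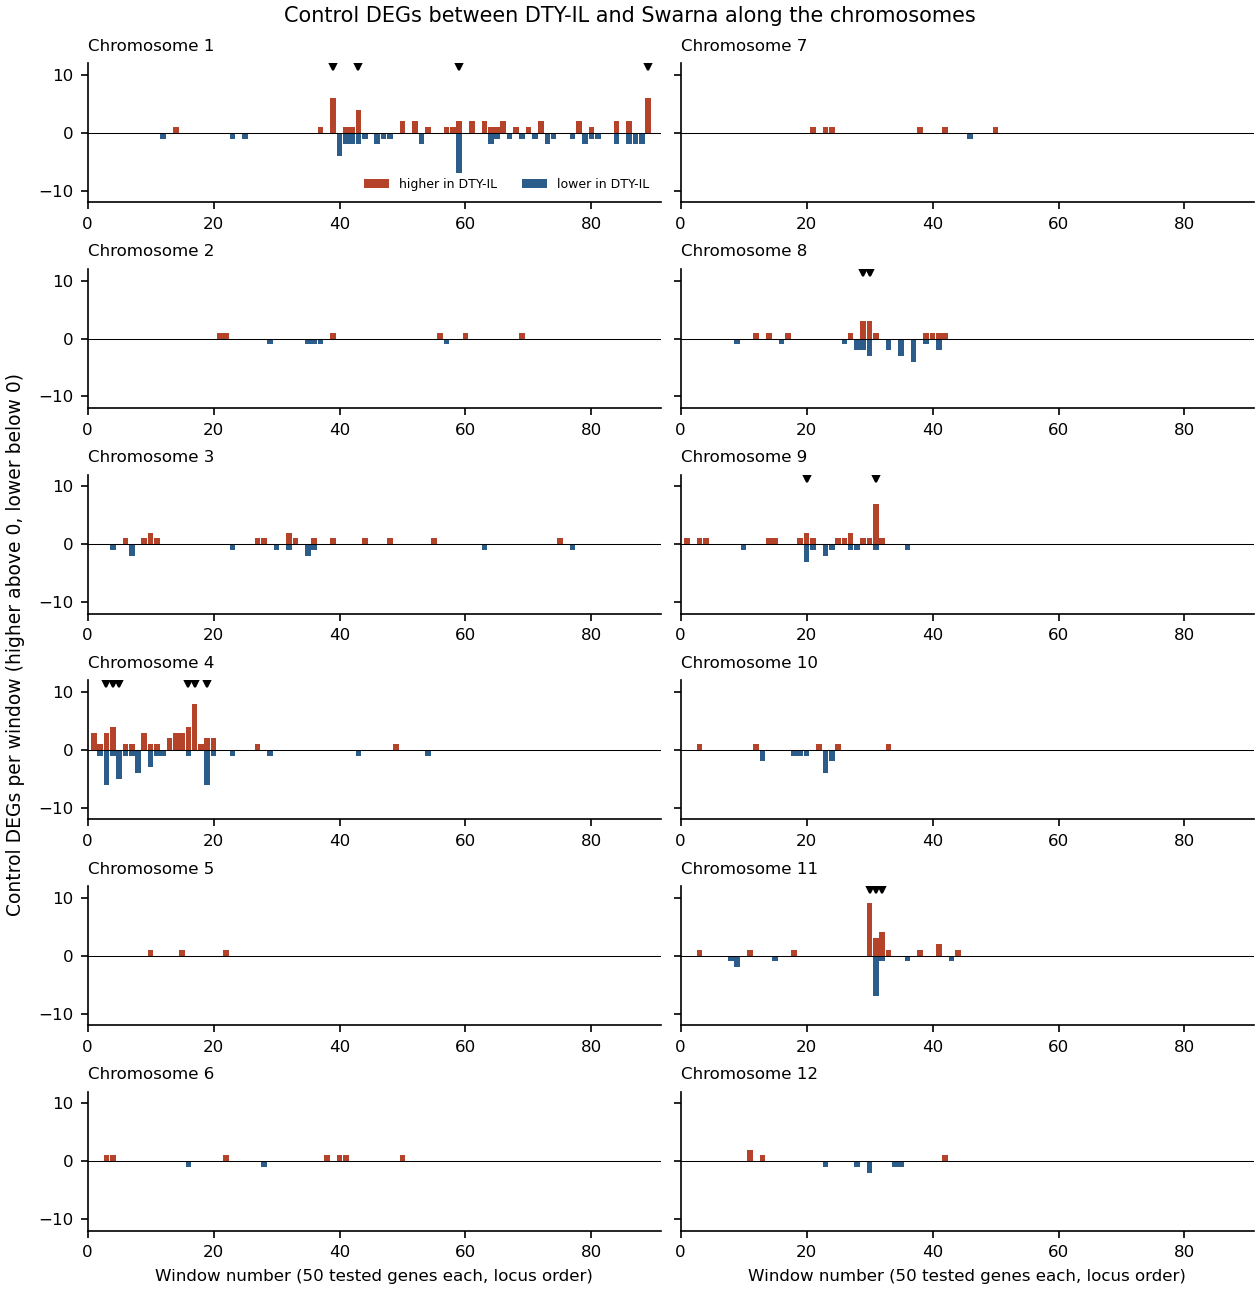
Control DEGs per window of 50 tested genes, in locus order along the 12 chromosomes. Bars above 0 count genes higher in DTY-IL and bars below 0 genes lower in DTY-IL, and black triangles mark the 17 windows in which at least 10% of the genes were DEGs. The DEGs of chromosome 4 sit almost wholly in its first 20 windows and those of chromosome 1 from window 37 onward, while chromosomes 2, 5, 6, 7 and 12 show scattered calls with at most 2 in a window.

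Chromosome 1 carried 4 blocks, each of 1 window. They ran from LOC_Os01g37200 to LOC_Os01g38140 with 6 DEGs, from LOC_Os01g41040 to LOC_Os01g41820 with 6, from LOC_Os01g53079 to LOC_Os01g53730 with 9 and from LOC_Os01g73550 to LOC_Os01g74170 with 6. Chromosome 4 carried a block from LOC_Os04g02960 to LOC_Os04g08740 with 19 DEGs among 150 genes and one from LOC_Os04g24590 to LOC_Os04g30130 with 22 among 200. Chromosome 8 carried one from LOC_Os08g31340 to LOC_Os08g33090 with 11 among 100. Chromosome 9 carried 2, from LOC_Os09g25370 to LOC_Os09g26144 with 5 and from LOC_Os09g33820 to LOC_Os09g34850 with 8, each among 50. The block of chromosome 11, from LOC_Os11g33970 to LOC_Os11g36620, held 24 among 150, and 12 of them were on/off. In its text the study names N22 fragments of DTY-IL on chromosomes 1, 3, 4, 8, 9 and 10, but none on chromosome 11. No block lay on chromosome 3 or 10. Whether the blocks match the N22 fragments was not tested.

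Direction was mixed within most blocks. The first and last blocks of chromosome 1 held 6 DEGs each, all higher in DTY-IL, and the second block of chromosome 9 held 7 higher and 1 lower. The first block of chromosome 4 held 7 higher and 12 lower, and the second 15 higher and 7 lower. In the last block of chromosome 1, LOC_Os01g73656 was on in DTY-IL at 662, 792, 798 and 659 counts against 0, 1 and 0 in Swarna. In the same block LOC_Os01g73670 had 2512, 3386, 3065 and 2318 counts against 328, 391 and 402, a log2 fold change of 2.88 ± 0.19 (SE; edgeR adjusted p = 3.35e-07). Genes that were silent in 1 genotype and genes that differed by degree thus lay in the same block.

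The droughted libraries, which entered the shared fit but not the control contrast that set the blocks, differed more often inside the blocks as a whole. Inside the blocks 18.0% of the genes were DEGs between the genotypes under drought, against 2.95% outside and 3.36% over all genes. Leaving out the control DEGs themselves, 63 of 784 genes inside the blocks, or 8.04%, were DEGs under drought only, against 791 of 32543 outside, or 2.43%. Over all genes inside the blocks the median absolute log2 fold change between the genotypes under drought was 0.74, against 0.36 outside. By block, the share among genes that were not control DEGs ran from 2.38% and 4.44% in the second and first blocks of chromosome 9 to 11.4% in 3 blocks of chromosome 1, so that it was not above the 2.43% outside in every block. These shares are descriptions over neighbouring genes, which are not independent of each other.

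On chromosomes 1, 4 and 11 the DEGs were concentrated in stretches. On chromosome 4, 75 of the 81 DEGs and all 16 on/off genes lay in windows 1 to 20, from LOC_Os04g01070 to LOC_Os04g31110, where 7.5% of 1000 genes were DEGs. In the remaining 41 windows 0.295% of 2037 genes were. On chromosome 1, 93 of the 97 DEGs and all 13 on/off genes lay from window 37 onward, that is from LOC_Os01g34790, with 3.46% of the genes called there and 0.222% before it. These limits were set after the control calls were seen. Among genes that were not control DEGs, 6.81% of the first stretch of chromosome 4 were DEGs under drought, against 2.41% of the rest of that chromosome, and the corresponding shares on chromosome 1 were 4.32% and 2.34%. On chromosome 11, windows 30 to 33 held 25 DEGs among 200 genes, against 7 among 1450 before and 6 among 552 after them. There 8 of 175 other genes were called under drought, against 39 of 1443 before and 24 of 546 after, so that the share was hardly above that of the next stretch.

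A run of neighbouring DEGs on chromosome 11 was chosen after its values were seen, with limits set at DEGs. From LOC_Os11g34770 to LOC_Os11g34970, 18 genes were tested and 11 were DEGs, of which 6 were higher and 5 lower in DTY-IL. LOC_Os11g34770 had 320, 240, 189 and 273 counts in DTY-IL and LOC_Os11g34790 had 1175, 1157, 1082 and 806, with none of either in the 3 Swarna libraries. LOC_Os11g34810 followed with 2052, 1657, 1675 and 1348 counts against 0, 1 and 0. LOC_Os11g34820 had 1426, 1398, 1215 and 754 counts against none. LOC_Os11g34790 and LOC_Os11g34820 were at least 342-fold and 385-fold higher in DTY-IL with Swarna set to 3 counts per library. These 4 genes were on in DTY-IL without a tested gene between them.

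A short way on, the direction turned. LOC_Os11g34880 had 212, 208 and 245 counts in Swarna, LOC_Os11g34920 had 69, 83 and 120, and LOC_Os11g34970 had 163, 87 and 181, all with no count in the 4 DTY-IL libraries. They were at least 75.2-fold, 30.7-fold and 48.9-fold lower in DTY-IL. Between the sets LOC_Os11g34860 was expressed alike, with 1125, 1144, 1258 and 822 counts in DTY-IL and 885, 856 and 950 in Swarna, and its log2 fold change of 0.24 ± 0.12 (SE) did not pass the test (edgeR adjusted p = 0.504). All 11 DEGs of the run were DEGs in the same direction under drought. Whether members of the run are near-identical copies, among which reads could be divided, was not tested.

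**Figure D3:**
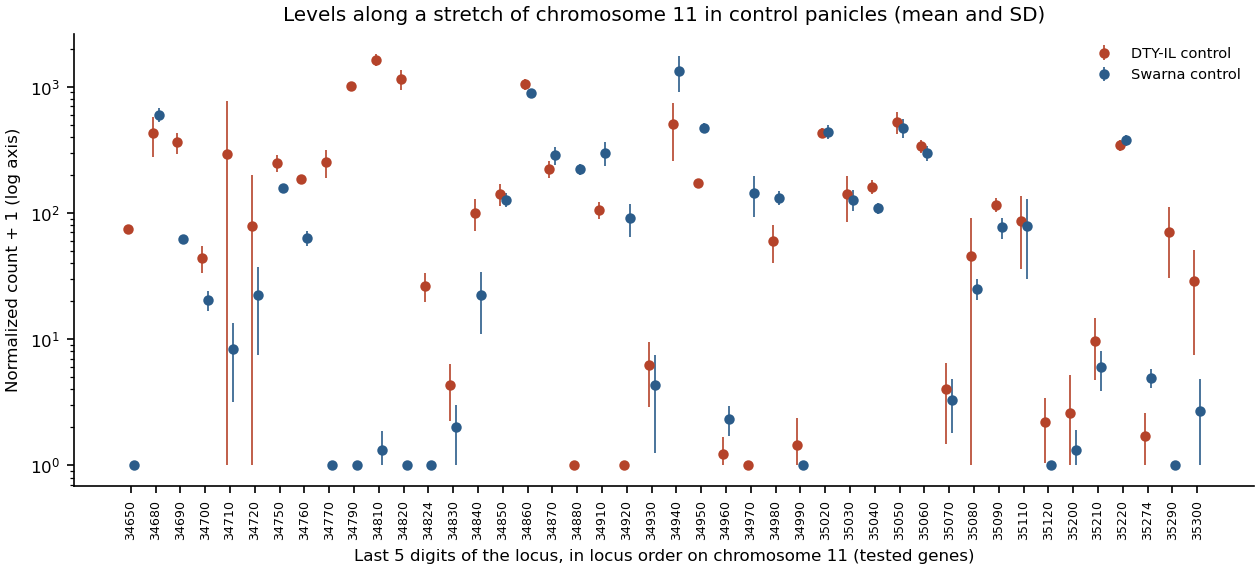
Mean normalized count + 1 with its SD, on a log axis, of the tested genes around the run on chromosome 11, in locus order, in the 4 DTY-IL and the 3 Swarna control libraries. Points at the bottom edge are genes with no counts. From LOC_Os11g34770 to LOC_Os11g34820 DTY-IL is high and Swarna lies at or next to the bottom edge, at LOC_Os11g34860 both genotypes lie together, and at LOC_Os11g34880, LOC_Os11g34920 and LOC_Os11g34970 only Swarna is above the edge.

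The control differences mostly recurred under drought. Of the 371 control DEGs 277, or 74.7%, were DEGs in the same direction in droughted panicles, where 3.36% of all genes were DEGs, and none was a DEG in the opposite direction. The sign was the same for 354. Across the 371 genes, which are not independent replicates, the log2 fold changes in control and in drought had a Pearson correlation of 0.94. The median absolute log2 fold change was 3.84 in control and 3.10 in drought. The correlation and the medians both depend on the choice of these genes by their control difference. They also include the 94 genes with no count in 1 genotype, whose fitted values depend on the prior count of the fit. Genes higher in DTY-IL recurred in 156 of 202 cases and genes lower in DTY-IL in 121 of 169. With DESeq2 683 genes were control DEGs, among them 368 of the 371, and 377 of the 683, or 55.2%, recurred, where 5.79% of all genes were DEGs under drought by that tool.

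Recurrence rose with the size of the difference. With silent groups at their bound, 69 of 121 DEGs below 2 log2 units recurred, or 57.0%, compared with 96 of 126 from 2 to 4, or 76.2%, and 112 of 124 from 4 upward, or 90.3%. Inside the blocks 99 of 116 recurred, or 85.3%, and outside 178 of 255, or 69.8%. The gap was widest for small differences, of which 21 of 26 recurred inside the blocks and 48 of 95 outside. For differences of 4 log2 units or more it was 49 of 55 inside and 63 of 69 outside. Median sizes differed as well, at 3.46 inside and 2.61 outside, and neither gap was tested.

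**Figure D4:**
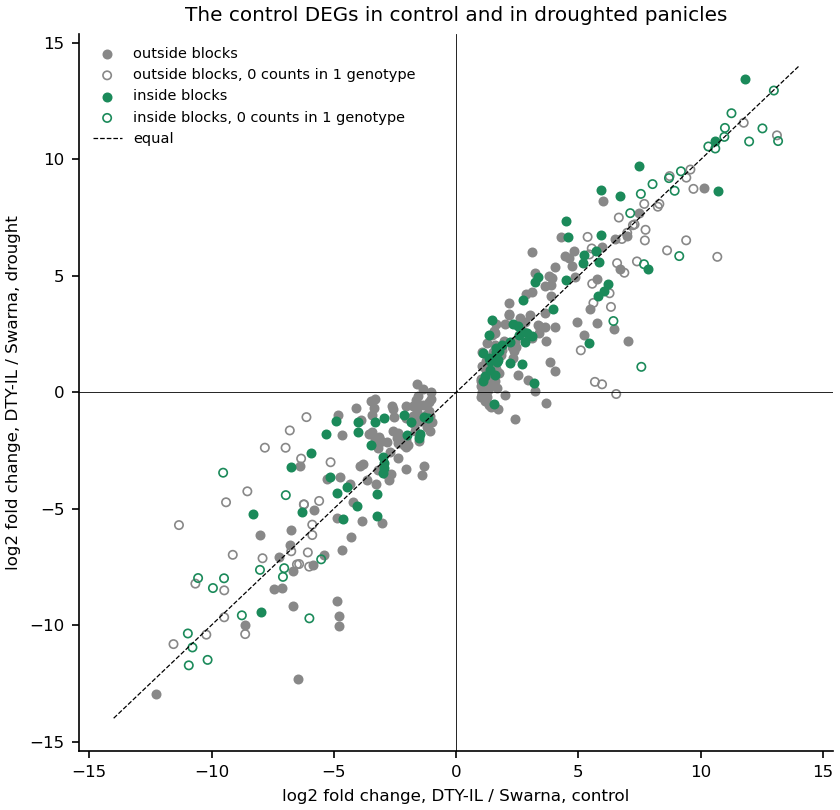
Log2 fold change of DTY-IL over Swarna in control panicles (x axis) and in droughted panicles (y axis) for the 371 control DEGs. Green points lie in the 10 blocks and grey points outside, and open circles are the 94 genes with no count in 1 genotype in control, whose fitted values depend on the prior count of the fit. The points follow the dashed line of equality, and 354 of 371 keep their sign.

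Of the 94 control DEGs that were not DEGs under drought, 77 kept their sign and 41 of these had an unadjusted p below 0.05 under drought in the same direction. In 24 of the 94 both genotypes averaged fewer than 10 normalized counts under drought. Of the 17 that changed sign, 4 had an unadjusted p below 0.05. Most of the DEGs that did not recur thus still pointed the same way.

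One block departed from this pattern. Of the 9 DEGs in the block of chromosome 1 from LOC_Os01g53079 to LOC_Os01g53730, 3 recurred under drought, whereas the lowest share in any other block was 15 of 19. LOC_Os01g53180 had 424, 547 and 331 counts in Swarna control and 7, 14, 12 and 11 in DTY-IL control. Under drought it had 36, 26, 32 and 131 counts in Swarna and 20, 17, 19 and 14 in DTY-IL, so that the Swarna libraries lay much nearer to those of DTY-IL. It was still a DEG there and 1 of the 3 that recurred, with a log2 fold change of -1.78 ± 0.47 (SE; edgeR adjusted p = 0.0446). LOC_Os01g53190 had 264, 250 and 189 against 6, 6, 13 and 6 in control and 44, 43, 27 and 84 against 32, 14, 11 and 30 under drought. It was not a DEG under drought (edgeR adjusted p = 0.103). The left-out Swarna control replicate 3 held 5 counts of LOC_Os01g53180 and 3 of LOC_Os01g53190, below every DTY-IL control library. In contrast LOC_Os01g53255, in the same block, was on in Swarna in both treatments, with 98, 88 and 93 counts in control and 239, 231, 270 and 245 under drought against at most 1 in any DTY-IL library. The test that the genotype difference itself differed between treatments gave an adjusted p of 0.101 for LOC_Os01g53180 and of 0.0559 for LOC_Os01g53190 (edgeR's quasi-likelihood test), short of the threshold.

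The second block of chromosome 9 was the opposite case, with all 8 of its DEGs recurring. LOC_Os09g33930 had 2472, 3064, 2743 and 2600 counts in DTY-IL control against 787, 883 and 840 in Swarna. Under drought the counts were higher in both genotypes, at 3586, 5709, 4527 and 4387 against 1797, 1911, 1570 and 1703. Its log2 fold change was 1.67 ± 0.14 in control and 1.30 ± 0.12 in drought (SE; edgeR adjusted p = 5.87e-06 and 1.66e-05). LOC_Os04g26220, in the second block of chromosome 4, had 11789, 11925, 3683 and 7108 counts in DTY-IL control and 123, 201 and 149 in Swarna control. Under drought it had 1672, 913, 660 and 2680 in DTY-IL and 13, 5, 24 and 42 in Swarna, so that every droughted library lay below its own control group. Its log2 fold change was 5.73 ± 0.72 in control and 6.06 ± 0.66 in drought (SE; edgeR adjusted p = 0.000363 and 6.86e-05). In both genes the genotype difference was called in each treatment although the counts were at another level, and the treatment difference was not tested.

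How many control DEGs differed in size between the treatments depended on the tool. In edgeR's quasi-likelihood test the interaction passed an adjusted p of 0.05 for 4 of the 371, and for 20, or 0.0594%, of all genes, whereas with DESeq2 it passed for 101 of its 683 control DEGs. The share of all genes that passed with DESeq2 was not determined. In edgeR at an unadjusted p below 0.05 it was 118 of the 371, or 31.8%, against 12.3% of all genes. None of these shares is independent of the choice of the control DEGs, since the interaction uses the control libraries. Leaving out single libraries changed the count of 4. It was 0 without DTY-IL control replicate 1, Swarna control replicate 1, 2 or 4, DTY-IL drought replicate 1 or Swarna drought replicate 3, and it was 1 without DTY-IL control replicate 2 or 4 or DTY-IL drought replicate 2. Removing Swarna drought replicate 2 gave 2, and removing DTY-IL control replicate 3 gave 7.

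Of the 4, a pair were DEGs in control panicles and not under drought. LOC_Os01g47262 had 1661, 1698, 1461 and 1291 counts in DTY-IL control against 575, 693 and 612 in Swarna, and 2121, 2207, 2332 and 2525 against 3318, 1944, 2296 and 2659 under drought. The log2 fold change was 1.25 ± 0.17 in control and -0.22 ± 0.15 in drought (SE), with an interaction of adjusted p = 0.0323 by edgeR's quasi-likelihood test. LOC_Os01g49710 had 416, 248, 263 and 314 counts against 96, 101 and 79 in control, and 573, 477, 551 and 606 against 621, 1331, 972 and 613 under drought (edgeR adjusted p of the interaction = 0.0323). In both genes every Swarna control library lay below every DTY-IL control library. Under drought the normalized counts of the genotypes overlapped in both. The control difference of LOC_Os01g49710 was no longer called without Swarna control replicate 4 (edgeR adjusted p = 0.0534) or with the left-out Swarna library included (edgeR adjusted p = 0.126).

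The other pair differed more under drought than in control. LOC_Os04g30200 had 317, 402, 399 and 254 counts in DTY-IL control against 22, 13 and 15 in Swarna, and 514, 777, 494 and 577 against 2, 6, 6 and 7 under drought (edgeR adjusted p of the interaction = 0.0471). LOC_Os10g32470 had 77, 73, 72 and 40 counts in DTY-IL control against 159, 140 and 169 in Swarna, and 17, 32, 21 and 24 against 181, 197, 215 and 199 under drought (edgeR adjusted p of the interaction = 0.0372). None of the 4 lay in a block.

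Of the genes of known panicle processes, 1 was a control DEG. In 10 lists of loci for floral organs, tapetum and anther, mature pollen, meiosis, photosynthesis, the circadian clock, heading date, drought and abscisic acid (ABA) response, gibberellin, and grain and panicle traits, 154 of 161 loci were tested, and the DEG was 0.649% of them, near the 1.1% of all genes. The members of the lists come from general knowledge of rice loci. At an unadjusted p below 0.05 there were 21, or 13.6%, against 11% of all genes, and DESeq2 called 2 loci, both of the grain and panicle list. The median log2 fold change over the 154 was -0.13, and that over all genes was 0.04. The single DEG, LOC_Os01g40630 of the grain and panicle list, had 806, 668, 313 and 900 counts in DTY-IL against 1493, 2253 and 1376 in Swarna, and its log2 fold change of -1.34 ± 0.31 (SE) lay at the threshold (edgeR adjusted p = 0.05). It was no longer called without any 1 of DTY-IL control replicates 1 and 2 or Swarna control replicates 1, 2 and 4, where the edgeR adjusted p ranged from 0.0816 to 0.289, nor with all 16 libraries (0.0668) or the 7 control libraries alone (0.214).

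The summed level of most lists overlapped between the genotypes. The floral organ list, with transcription factors that specify lemma, lodicule, stamen and carpel, ranged from 56520 to 71136 normalized counts in DTY-IL and from 66106 to 73549 in Swarna, and none of its 16 genes was a DEG, with 1 at an unadjusted p below 0.05. The meiosis list ranged from 1660 to 2512 and from 1754 to 2304, and the photosynthesis list, for green tissue, from 646277 to 1819314 and from 1107500 to 1727573.5 in the same order. The drought and ABA response list ranged from 26604 to 32172 in DTY-IL and from 21603 to 29096 in Swarna in control panicles, compared with 72465 to 260693 in droughted panicles of both. All 7 control libraries thus lay below every droughted library for that list.

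Some lists stood apart in sum without a gene passing the test. The mature pollen list of 3 MADS-box genes ranged from 629 to 1635 normalized counts in DTY-IL and from 2190 to 2618 in Swarna, and its 3 log2 fold changes ran from -1.31 to -0.52 with a smallest edgeR adjusted p of 0.381. The gibberellin list ranged from 42461 to 59706 and from 66438 to 70346, with 19 genes tested and a smallest edgeR adjusted p of 0.246. At an unadjusted p below 0.05 there were 1 and 4 genes in these lists.

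1 library differed from its group in the tapetum and anther list, whose genes act in the cell layer that feeds the pollen. DTY-IL control replicate 3 summed to 60105 normalized counts, while the other 3 DTY-IL control libraries ranged from 10717 to 17622 and the Swarna control libraries from 11740 to 17490. All 16 genes of the list were highest in that library within the group. None of the 16 was a DEG with or without it, with 4 at an unadjusted p below 0.05 when it was included, and their median log2 fold change was 0.63 with it and -0.08 without it. Without that library 349 genes were DEGs, of which 311 were among the 371, and the part of that library in the other 60 was not tested further.

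**Figure D5:**
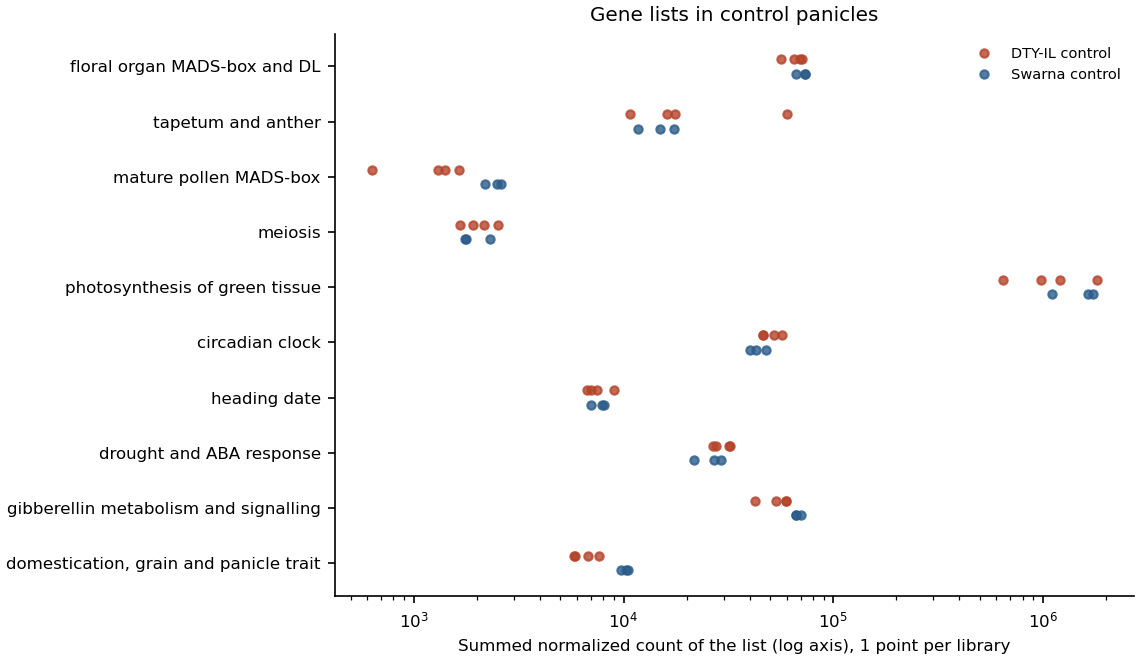
Summed normalized counts of the 10 gene lists on a log axis, with 1 point for each of the 4 DTY-IL and the 3 Swarna control libraries. In the tapetum and anther row DTY-IL control replicate 3 lies at 60105 and the other 6 libraries at 17622 or less, and in the mature pollen, gibberellin and grain and panicle rows the genotypes do not overlap.

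The loci that the study names in its drought quantitative trait regions were not control DEGs. LOC_Os01g66120, a no apical meristem (NAM) protein, a family of plant transcription factors, had 1339, 1679, 605 and 1963 counts in DTY-IL and 1892, 1971 and 1516 in Swarna, a log2 fold change of -0.36 ± 0.44 (SE; edgeR adjusted p = 0.813). LOC_Os01g66820, annotated as an inactive receptor kinase precursor, had 18, 15, 3 and 25 counts against 3, 9 and 9 (edgeR adjusted p = 0.621). LOC_Os01g67030, annotated as an auxin-responsive protein, had 3, 8, 6 and 0 counts against 5, 3 and 1 (edgeR adjusted p = 0.905). Counts as low as those of the last could not show a moderate difference at this depth. Under drought LOC_Os01g67030 had 8, 11, 3 and 9 counts in DTY-IL and 1, 0, 0 and 0 in Swarna and was a DEG (edgeR adjusted p = 0.027).

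LOC_Os03g03510, a calcium/calmodulin-dependent protein kinase of the CIPK type, which acts in calcium signalling, had 1851, 2514, 1583 and 2393 counts in DTY-IL and 2953, 4281 and 3645 in Swarna. The groups did not overlap, but the log2 fold change of -0.81 ± 0.23 (SE) did not pass the test (edgeR adjusted p = 0.141). Under drought it was -1.15 ± 0.22 (SE) and did (edgeR adjusted p = 0.00694). The difference between the treatments did not (edgeR adjusted p of the interaction = 0.694). From LOC_Os01g66120 to LOC_Os01g67030 on chromosome 1, 73 genes were tested and 3, or 4.11%, were control DEGs. The share was 2.16% over the whole chromosome and 3.46% over the stretch from window 37 onward, in which these genes lie.

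Other loci that the study annotates were not control DEGs either, which does not show that they were alike. The study describes the peroxidases in flag leaves and the AP2 locus in panicles, each under drought, so its results are not from control panicles. The class III peroxidases, secreted enzymes that act on cell walls and reactive oxygen, varied widely between libraries of DTY-IL. LOC_Os03g13200 had 677, 93, 4806 and 89 counts in DTY-IL and 127, 119 and 117 in Swarna, a log2 fold change of 3.48 ± 1.38 (SE; edgeR adjusted p = 0.358). Its highest value came from replicate 3. LOC_Os07g01370 had 436, 152, 930 and 98 counts against 146, 137 and 143 (edgeR adjusted p = 0.632), again highest in that library. LOC_Os07g48020 had 18, 26, 1 and 18 counts against 9, 8 and 4 (edgeR adjusted p = 0.779). LOC_Os07g22770, with an AP2 domain and a role in floral organ identity, had 42, 109, 27 and 73 counts against 64, 56 and 50 (edgeR adjusted p = 0.963). Of these loci only LOC_Os07g48020 was a DEG in droughted panicles. It had 162, 1283, 354 and 15 counts in DTY-IL there against 2, 7, 0 and 2 in Swarna (edgeR adjusted p = 0.00386). LOC_Os07g22770 fell just short of the threshold, with 52, 162, 36 and 59 counts in droughted DTY-IL against 18, 32, 13 and 4 in droughted Swarna. Its log2 fold change there was 2.08 ± 0.57 (SE; edgeR adjusted p = 0.0502).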

How the data were processed

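Reads had been trimmed with Trimmomatic and quantified by the authors with Salmon 0.7.2 on Nipponbare RGAP 7 transcripts, with bias correction, per the study's methods and the submitters' processing notes. The authors deposited gene counts, which are Salmon estimates summed per gene, whole and not normalized. Their DESeq2 tables hold the authors' own fold changes and p-values and were not used. Libraries came from pots of a randomized block design. Count columns name a group and a number that is not the pot, and replicate numbers are those of the columns.

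The 15 libraries were fitted together by group with edgeR 4.0.16 in R 4.3.3 (genes with 10 or more counts in total, TMM normalization, quasi-likelihood test, Benjamini-Hochberg adjustment over all genes of a contrast). Library totals ranged from 24677520 to 31080042, and the bound of 3 counts per library covers counting error only. Counts of the control comparison were simulated for 33194 genes, and only genes averaging 50 or more normalized counts were given a change. Of 50 such genes each at 2-fold, 4-fold, 8-fold and 16-fold, 28%, 80%, 100% and 94% were called. The 32994 genes left unchanged gave 7 false calls. Recovery of weaker genes was not tested, and 12373 of the 33698 genes tested averaged below 50 normalized counts in their higher group. Alternatives were DESeq2 1.42.0, other filters, scaling, libraries, on/off limits and windows, and a test against a log2 fold change of 1.

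The rule for named loci took the loci the study names in its drought regions, the 8 DEGs with the largest change in each direction without overlap and with 50 or more normalized counts on average, the 8 on/off genes with the highest mean on each side, list members that were DEGs, the 10 smallest p-values and the 2 DEGs with the highest counts in each block, and a few of these are printed. The interaction genes, LOC_Os04g10530, LOC_Os01g53255, the further loci of the chromosome 11 run, and the peroxidase and AP2 loci were chosen after their values were seen. The comparison, its members and the lists were chosen with earlier results of these data known. No locus identifier matched the gene table used here, so no sequence or coordinate is given.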

Additional observations from a re-analysis of the deposited data

Results flagged for a closer look

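For 4 control DEGs the genotype difference was not the same in the 2 treatments by the interaction test of edgeR's quasi-likelihood fit. The difference, as drought minus control on the log2 scale, was -1.47 for LOC_Os01g47262 and -2.47 for LOC_Os01g49710 (both adjusted p = 0.0323), 2.38 for LOC_Os04g30200 (adjusted p = 0.0471) and -1.86 for LOC_Os10g32470 (adjusted p = 0.0372). With DESeq2 101 of its 683 control DEGs passed the interaction test, and its share over all genes was not determined.

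Single libraries stood far from the other 3 of their group in 8 of 93 groups of values examined, where chance flags about 1 in 20. The tapetum and anther list summed to 60105 normalized counts in DTY-IL control replicate 3. LOC_Os03g13200 reached 4542 normalized counts in the same library. LOC_Os10g32470 was low in DTY-IL control replicate 4, at 44.9 normalized counts. Under drought, LOC_Os04g25784 was at 1198 and LOC_Os11g34790 at 1137 normalized counts in DTY-IL replicate 2, LOC_Os01g53180 at 144.6 in Swarna replicate 4, and LOC_Os03g13200 at 272.6 and LOC_Os07g01370 at 428.1 in Swarna replicate 1.

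The left-out Swarna control replicate 3 was read at the on/off genes. At the 30 genes that were on in DTY-IL it held at most 3 counts in 29 and 5 in the remaining one, as the other Swarna control libraries did. At the 34 genes that were on in Swarna it held at least 30 counts in 17 and at most 3 in 10. With it included 46 of the 64 genes were still on/off. At LOC_Os01g40630 it held 14216 counts, above the other 3 Swarna control libraries, which had 1493, 2253 and 1376.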

How the results depend on the processing

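The 371 control DEGs became 683 with DESeq2 without a prior and 707 with one, in both of which 368 of the 371 were shared, and 205 when tested against a log2 fold change of 1. With DESeq2 without a prior 60.9% of the calls were higher in DTY-IL, compared with 54.4% in edgeR. The 315 genes that only DESeq2 called recurred under drought less often by its own calls, in 89 cases or 28.3%, than the 368 shared ones, in 288 cases or 78.3%, where 5.79% of all genes were called. Leaving out 1 of the 15 libraries gave from 252 to 360 DEGs, lowest without Swarna control replicate 1, and from 209 to 268 recurring under drought. The recurring count was 160 of 205 with the test against a log2 fold change of 1. In separate fits of the 7 control and the 8 droughted libraries, an alternative added after seeing the data, 197 of 289 recurred, or 68.2%, where 2.10% of the genes were drought DEGs. The 4 interaction genes became 101 and 96 with DESeq2 without and with a prior, 8 with edgeR's filterByExpr, 0 with all 16 libraries and 0 when tested against a log2 fold change of 1, and ranged from 0 to 7 with 1 library left out. The cause of these changes was not tested. On/off genes numbered 32 with at least 100 counts for on, and from 65 to 71 with a control library left out. There were 18 blocks with windows of 25 genes, 5 with windows of 100, 1 when 20% of the genes had to be DEGs, 16 from DESeq2 calls, and from 8 to 11 with a control library left out. Of the 49 named DEGs, 41 to 49 were called under each alternative run for them, including 44 to 48 with a control library left out. Of 407 values of the 37 printed loci under alternatives, 392 kept their direction and their side of the threshold, 9 dropped below it and 6 changed sign, none of them at a DEG. These were LOC_Os11g34860 (-0.062) and LOC_Os01g66820 (-0.78) with all 16 libraries, LOC_Os01g67030, which ranged from -0.045 to 0.99 with a control library left out and was negative without DTY-IL control replicate 2 or Swarna control replicate 4 (-0.042), and LOC_Os07g22770, which ranged from -0.21 to 0.38 and was negative without DTY-IL control replicate 2 or 4 (-0.045). No paired analysis was possible because the count columns carry numbers that are not the pot numbers of the samples.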
